A study of Homo sapiens with 6 samples.

Results

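The genes described here are 10 genes best known from neurons, which shape microtubules and neurites or belong to the pathway of regulated secretion: MAP2, MAP1B, DCLK1, DPYSL3, TUBB3, GAP43, STMN2, NEFL, SCG2 and SCG5. They were named by their symbols with earlier results of these arrays known, and each was read on the probe set selected on its mean log2 signal over the 6 arrays, the brightest of its probe sets. They are 10 of 19775 genes with a probe set of their own, and they hold 24 probe sets. The cells were U87MG, an established human glioblastoma line, and derivatives of it. U87MGR is the highly invasive derivative, measured in samples titled U87MGR2 (replicate 1) and U87MGR3 (replicate 2). U87MGL is the non-invasive derivative, measured in samples titled U87MGL2 (replicate 1) and U87MGL3 (replicate 2). Parental U87MG was measured on 2 arrays as well. Both derivatives passed through 4 rounds of growth in the brain, in which cells were injected into the striatum of 6-week-old BALB/c nu/nu nude mice, a host without a normal thymus, and tumour cells were dissociated and cultured again. The parental cells had no such passage, so brain passage, selection and renewed culture cannot be told apart between a derivative and U87MG. All cells derive from 1 line, and the labels name no altered gene and no agent in the cultures measured.

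As background, microtubules in a growing neurite are stabilised by proteins that bind along them and are taken apart by proteins that bind free tubulin. MAP1B, MAP2 and doublecortin-like kinase 1 belong to the first kind and stathmin-2 to the second, while dihydropyrimidinase-like 3 binds tubulin and filamentous actin at the growth cone, the motile tip of a neurite. Neuroendocrine cells and neurons also store peptides in dense-core granules, for which granins such as secretogranin II and chaperones of the prohormone convertases such as SCG5 are known. Several of these genes are also active outside neurons, among them in glioma cells in culture.

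Array medians were close, at 5.29 to 5.35 on the log2 scale. Spiked-in control RNA parted the arrays in a way that crossed the groups: U87MGR replicate 1 lay with both U87MGL arrays, U87MGR replicate 2 lay with U87MG replicate 1, and U87MG replicate 2 stood alone (distances of 0.882 to 1.41 within and 5.56 to 8.83 between these batches). A within-batch difference can therefore be given for U87MGR against each other group, and for U87MGL against U87MG the batch and the group cannot be told apart by direct comparison. The actin control 3′ minus 5′ difference was 0.25 to 0.28 in U87MGR, 0.28 to 0.39 in U87MGL and -0.01 and 0.22 in U87MG; its part in the results below was not tested.

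Of the 10 genes, 8 reached the signal threshold for testing, a mean log2 signal of 4.73 (the 40th percentile of all probe sets). STMN2 and NEFL lay below it. Differences are log2 fold changes, the first-named group minus the second, from 1 limma model over the 14513 genes that reached the threshold, with two-sided p-values adjusted over all of them by the Benjamini-Hochberg method; a call means an adjusted p under 0.05. In U87MGR against U87MGL, limma called 1 of the 8 genes lower (SCG2) and 0 higher, against 0.117% and 0.0413% of all genes tested; at an unadjusted p under 0.05, 2 were lower and 2 higher (4.94% and 3.91% of all genes). In U87MGR against U87MG it called 1 higher (DPYSL3) and 0 lower, against 1.86% and 1.44%; unadjusted, 3 were higher and 3 lower (11.0% and 9.78%). In U87MGL against U87MG it called 2 higher (DPYSL3 and SCG2) and 2 lower (DCLK1 and MAP2), against 3.02% and 1.80%. Unadjusted, 4 were higher and 2 lower (13.2% and 10.1%). SCG2 reached the threshold only through U87MGL, the group where it was highest, and is counted here with that limit. With no filter on dim genes limma called the same genes in each comparison. The median difference of the 8 genes was -0.19, -0.05 and 0.79 in these 3 comparisons, against 0.00, -0.01 and -0.02 over all genes tested. Because the genes were named with these contrasts known, the shares describe the arrays and nothing more is read from them. The 3 comparisons share arrays, so their values stand side by side below and are not independent. In cultures measured in bulk, fewer cells with a transcript and less of it per cell cannot be told apart. With 2 arrays a group, an exact permutation test of a single gene could not fall below p = 0.333.

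**Figure D1:**
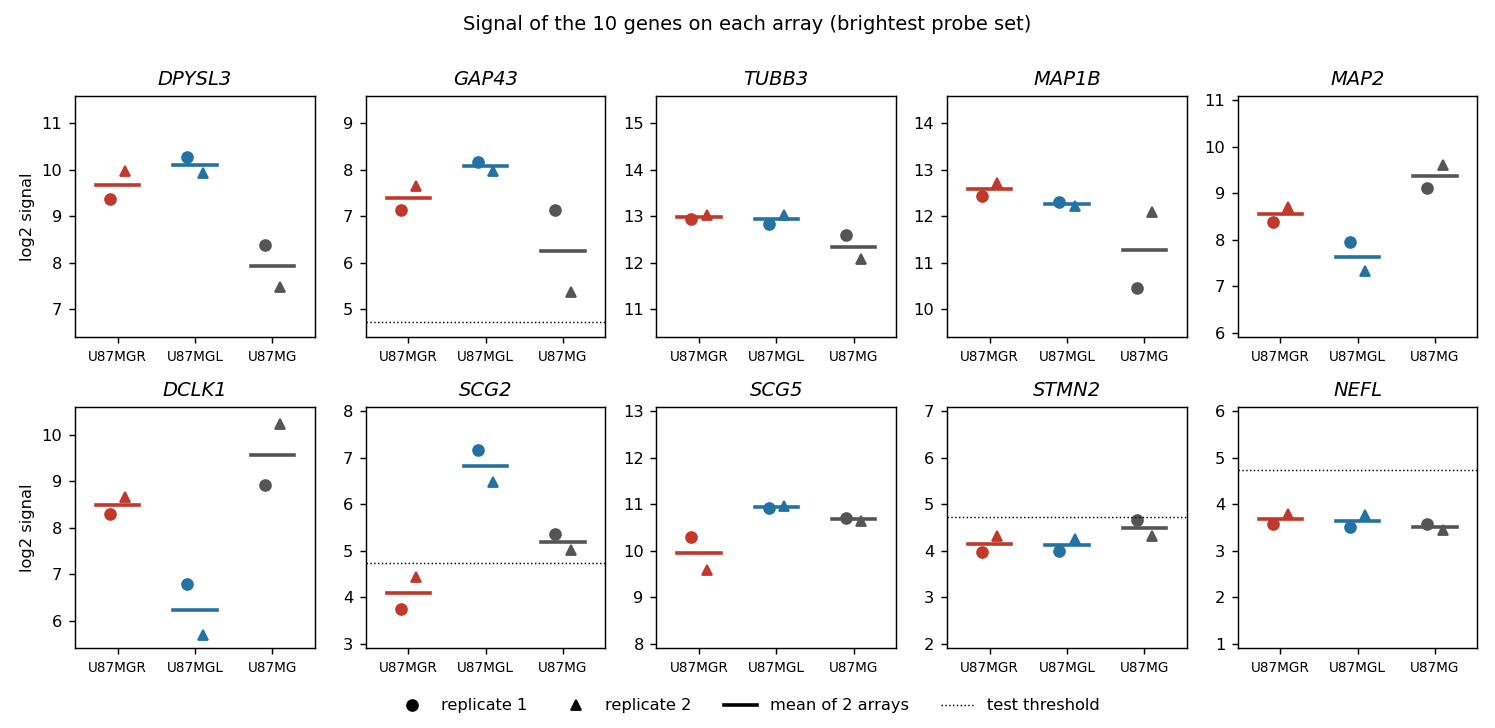
Log2 signal of each gene (vertical axis, spanning the same number of log2 units in every panel) on the 2 arrays of U87MGR, U87MGL and U87MG; circles are replicate 1, triangles replicate 2, bars the mean of 2 arrays, and the dotted line the threshold of 4.73. DPYSL3 lay between 9.38 and 10.27 in the 4 derivative arrays and at 8.38 and 7.49 in U87MG, DCLK1 was lowest in U87MGL, SCG2 was highest in U87MGL, and STMN2 and NEFL stayed under the line on every array.

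DPYSL3, a collapsin response mediator protein that binds tubulin and bundles actin, was the 1 gene of the 8 called higher in both derivatives against the parental line. Its log2 signal was 9.38 and 9.97 in U87MGR, 10.27 and 9.94 in U87MGL, and 8.38 and 7.49 in U87MG. All 4 derivative arrays lay above both parental arrays, while the derivatives overlapped each other. It was 3.35-fold higher in U87MGR than in U87MG (1.74, SE 0.33, limma adjusted p = 0.0429) and 4.50-fold higher in U87MGL than in U87MG (2.17, SE 0.33, limma adjusted p = 0.0212). U87MGR and U87MGL differed by -0.43 (95% interval -1.21 to 0.35, limma adjusted p = 0.757). Within the batch of U87MGR replicate 2 and U87MG replicate 1 it differed by 1.59.

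RefSeq gives DPYSL3 a pair of start sites. The 250 bases before each are shown because the gene moved in both derivatives, with the sequence of GRCh38.p14 read 5′ to 3′ along the gene; capitals mark a match to any of 6 short motifs described further on. The first window has 25 CpG dinucleotides and no match, and the second has 21 CpG and 3 matches, all of them the GC box.
DPYSL3 start 1, chr5:147510069-147510318, minus strand: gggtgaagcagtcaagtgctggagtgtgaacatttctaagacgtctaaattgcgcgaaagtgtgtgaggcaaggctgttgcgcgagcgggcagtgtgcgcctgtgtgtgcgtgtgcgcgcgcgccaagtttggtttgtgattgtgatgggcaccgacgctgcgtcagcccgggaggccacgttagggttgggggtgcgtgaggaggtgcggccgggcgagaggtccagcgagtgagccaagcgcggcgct
DPYSL3 start 2, chr5:147453693-147453942, minus strand: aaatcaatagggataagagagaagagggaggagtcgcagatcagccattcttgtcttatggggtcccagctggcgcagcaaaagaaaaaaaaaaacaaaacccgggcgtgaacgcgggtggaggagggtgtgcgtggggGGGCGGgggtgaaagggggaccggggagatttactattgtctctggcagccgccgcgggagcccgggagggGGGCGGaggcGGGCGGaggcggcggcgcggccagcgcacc

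GAP43, a membrane phosphoprotein of growth cones, followed the same order of groups as DPYSL3 but was not called. Its log2 signal was 7.14 and 7.65 in U87MGR, 8.18 and 7.97 in U87MGL, and 7.15 and 5.38 in U87MG. Both U87MGL arrays lay above both U87MG arrays, and U87MGR replicate 1 lay level with U87MG replicate 1. The parental arrays differed by 1.77 in this gene. It differed by 1.81 in U87MGL against U87MG (SE 0.51, limma adjusted p = 0.096). The difference was 1.13 in U87MGR against U87MG (SE 0.51, limma adjusted p = 0.269) and -0.68 in U87MGR against U87MGL (95% interval -1.89 to 0.54). One array decided the values against the parent: without U87MG replicate 1, limma called both, at 2.70 for U87MGL and 2.02 for U87MGR, and without U87MG replicate 2 they were 0.93 for U87MGL and 0.25 for U87MGR. Within the spike-in batches U87MGR differed by 0.51 from U87MG and by -0.94 from U87MGL.

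TUBB3, the beta-tubulin isotype used as a neuronal marker, was among the brightest features of the array, at the 99.3 percentile of all probe sets. Its log2 signal was 12.93 and 13.03 in U87MGR, 12.84 and 13.04 in U87MGL, and 12.60 and 12.08 in U87MG. The 4 derivative arrays lay above both parental arrays and among themselves they overlapped. The difference was 0.64 in U87MGR against U87MG (SE 0.21, limma adjusted p = 0.144) and 0.60 in U87MGL against U87MG (SE 0.21, limma adjusted p = 0.148), so neither was called, and U87MGR and U87MGL differed by 0.04 (95% interval -0.45 to 0.53). Both of its probe sets carry the suffix _x_at, which the maker gives to sets whose probes can also match other transcripts, so part of the signal may come from other tubulin genes; this was not tested.

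MAP1B, which binds and crosslinks microtubules in growing axons, had a log2 signal of 12.44 and 12.72 in U87MGR, 12.32 and 12.21 in U87MGL, and 10.46 and 12.10 in U87MG. U87MG replicate 1 stood far below the other 5 arrays, which ran from 12.10 to 12.72. It differed by 1.30 in U87MGR against U87MG (SE 0.47, limma adjusted p = 0.179), by 0.99 in U87MGL against U87MG (SE 0.47, limma adjusted p = 0.258) and by 0.32 in U87MGR against U87MGL (95% interval -0.79 to 1.42). Against the parent the values were 0.48 for U87MGR and 0.17 for U87MGL without U87MG replicate 1. Without U87MG replicate 2 they were 2.12 for U87MGR and 1.81 for U87MGL, and limma called both. Within the batch of U87MGR replicate 2 and U87MG replicate 1 the difference was 2.26.

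MAP2, the microtubule-associated protein of dendrites, was lower in U87MGL than in U87MG. The 6 arrays read 8.38 and 8.71 in U87MGR, 7.94 and 7.31 in U87MGL, and 9.12 and 9.61 in U87MG, with no overlap between any of the groups. It fell by 1.74 in U87MGL against U87MG, a 3.33-fold difference (SE 0.27, limma adjusted p = 0.0226). In U87MGR against U87MG it differed by -0.82 (SE 0.27, limma adjusted p = 0.15) and in U87MGR against U87MGL by 0.92 (SE 0.27, limma adjusted p = 0.374), neither of which was called. Within the spike-in batches these were -0.41 and 0.75.

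DCLK1, a kinase with doublecortin domains that stabilises microtubules in migrating neurons, had the largest difference of the 8 genes between U87MGL and U87MG. On the log2 scale it read 8.30 and 8.67 in U87MGR, 6.78 and 5.69 in U87MGL, and 8.91 and 10.22 in U87MG. The groups did not overlap, and they stood in the same order as for MAP2. DCLK1 was 10.1-fold lower in U87MGL than in U87MG (-3.33, SE 0.49, limma adjusted p = 0.0187). Leaving out 1 parental array gave -2.67 (without replicate 2) or -3.99 (without replicate 1), and it was -2.31 and not called with 3 spike-in batches as a block (limma adjusted p = 0.262). It differed by -1.08 in U87MGR against U87MG (SE 0.49, limma adjusted p = 0.265; -0.43 without U87MG replicate 2 and -1.74 without U87MG replicate 1). In U87MGR against U87MGL it differed by 2.25, a 4.74-fold higher signal, with an unadjusted p of 0.00238 that did not pass over all genes (SE 0.49, limma adjusted p = 0.193). Within the batch of both U87MGL arrays and U87MGR replicate 1 this was 2.06, and within that of U87MGR replicate 2 and U87MG replicate 1 the difference between U87MGR and U87MG was -0.24.

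DCLK1 has 3 start sites in RefSeq, and the last lies inside the gene and gives the known short form without doublecortin domains. The windows before them are shown because this gene had the largest difference of the 8 between U87MGL and U87MG. They have 2, 22 and 5 CpG dinucleotides, and the second holds the 1 match found, a GC box. Start usage was not analysed here.
DCLK1 start 1, chr13:36131940-36132189, minus strand: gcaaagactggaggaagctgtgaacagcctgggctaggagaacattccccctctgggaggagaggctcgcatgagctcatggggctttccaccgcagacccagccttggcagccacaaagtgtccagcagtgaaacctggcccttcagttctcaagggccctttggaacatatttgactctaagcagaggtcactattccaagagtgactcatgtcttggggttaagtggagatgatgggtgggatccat
DCLK1 start 2, chr13:36131383-36131632, minus strand: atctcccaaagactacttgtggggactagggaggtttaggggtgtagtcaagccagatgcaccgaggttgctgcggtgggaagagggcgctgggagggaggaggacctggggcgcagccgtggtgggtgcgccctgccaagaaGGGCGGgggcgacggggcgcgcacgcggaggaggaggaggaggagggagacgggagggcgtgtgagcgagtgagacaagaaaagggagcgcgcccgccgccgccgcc
DCLK1 start 3, chr13:35855668-35855917, minus strand: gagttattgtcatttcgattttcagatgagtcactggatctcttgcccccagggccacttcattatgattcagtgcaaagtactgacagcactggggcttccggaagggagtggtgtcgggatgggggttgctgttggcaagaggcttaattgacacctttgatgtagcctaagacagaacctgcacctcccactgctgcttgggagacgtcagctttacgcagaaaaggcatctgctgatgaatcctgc

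SCG2, secretogranin II, a granin cut into secreted peptides in dense-core granules, was lower in U87MGR than in U87MGL and higher in U87MGL than in U87MG. The log2 signal of SCG2 was 3.74 and 4.44 in U87MGR, 7.18 and 6.47 in U87MGL, and 5.35 and 5.01 in U87MG. The groups did not overlap, and both U87MGR arrays lay under the threshold of 4.73, so the gene reached the threshold only through U87MGL: the other 4 arrays averaged 4.64. With U87MGR set to the threshold, SCG2 was 4.28-fold lower in U87MGR than in U87MGL. The threshold is a filter on dim genes and not a detection limit, and the spread of the arrays is left out. The 4.28-fold value is therefore not a lower bound. The measured difference was -2.74 (SE 0.31, limma adjusted p = 0.0388, and 0.0359 with no filter on dim genes). This call was lost with the replicate block (limma adjusted p = 0.0524), with 2 or 3 spike-in batches as a block (0.199 and 0.125) and whenever 1 array was left out. SCG2 was 3.13-fold higher in U87MGL than in U87MG (1.64, SE 0.31, limma adjusted p = 0.036). In U87MGR against U87MG it differed by -1.09 (SE 0.31, limma adjusted p = 0.11) and was not called. Within the batch of both U87MGL arrays and U87MGR replicate 1 it differed by -3.09.

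SCG5, the 7B2 chaperone that escorts prohormone convertase 2 through the secretory pathway, was bright in all groups, at 10.31 and 9.58 in U87MGR, 10.93 and 10.97 in U87MGL, and 10.71 and 10.65 in U87MG. As for SCG2, both U87MGR arrays were the lowest and both U87MGL arrays the highest of the 6, but the gene was called in no comparison. The difference was -1.00 in U87MGR against U87MGL (SE 0.24, limma adjusted p = 0.244). It was -0.73 in U87MGR against U87MG (SE 0.24, limma adjusted p = 0.148) and by 0.27 in U87MGL against U87MG (95% interval -0.30 to 0.84). The U87MGR arrays differed by 0.72, and without U87MGR replicate 2 the difference was -0.64 against U87MGL and -0.37 against U87MG.

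STMN2, the stathmin that binds free tubulin in neurons, and NEFL, the light neurofilament chain, were dim on every array. STMN2 had a log2 signal of 3.97 and 4.32 in U87MGR, 3.99 and 4.26 in U87MGL, and 4.67 and 4.31 in U87MG, at the 31.4 percentile of all probe sets on average. NEFL had 3.58 and 3.79 in U87MGR, 3.52 and 3.77 in U87MGL, and 3.57 and 3.44 in U87MG, at the 18.2 percentile. Neither was tested. Just inside the threshold, SCG2 had a mean over the 6 arrays of 5.37; just outside it, STMN2 had 4.25 and NEFL 3.61. These data do not show whether either gene was expressed at a low level.

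**Figure D2:**
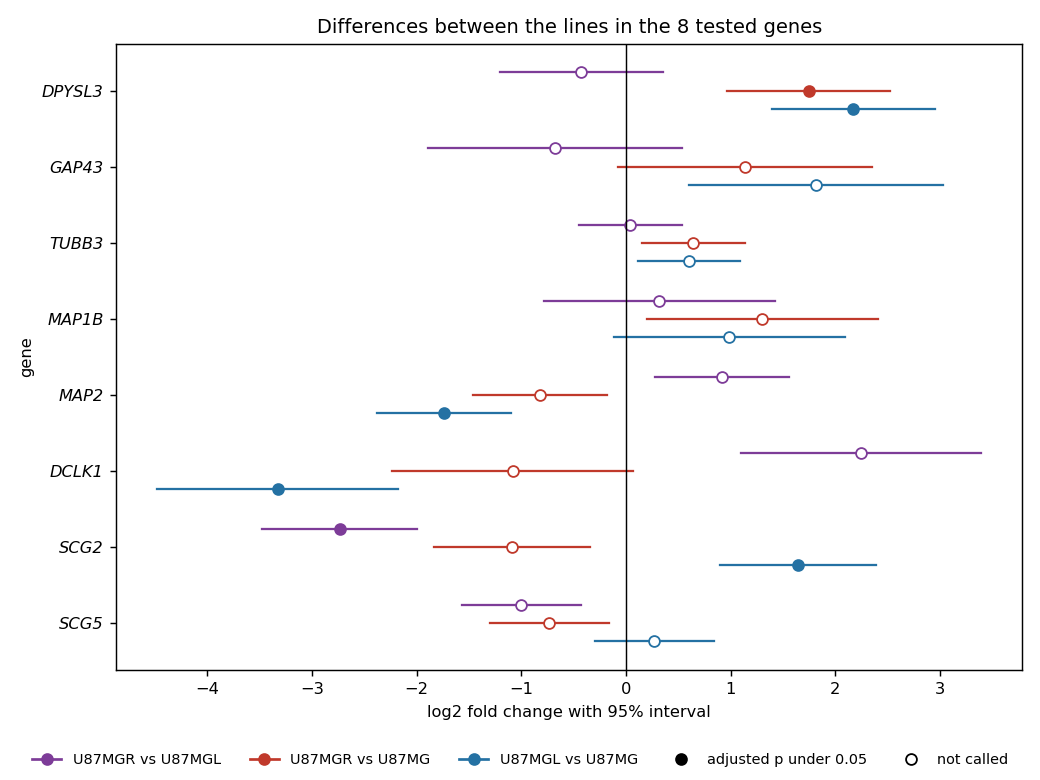
Log2 fold change (horizontal axis, 95% interval from limma) of the 8 tested genes in U87MGR vs U87MGL, U87MGR vs U87MG and U87MGL vs U87MG; filled points have an adjusted p under 0.05. DPYSL3 lay at 1.74 and 2.17 against the parental line, DCLK1 and MAP2 at -3.33 and -1.74 in U87MGL vs U87MG, and SCG2 at -2.74 in U87MGR vs U87MGL, where U87MGR lay under the threshold, and at 1.64 in U87MGL vs U87MG.

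The called values kept their direction when any 1 array was left out, while most calls did not last. SCG2 in U87MGR against U87MGL ranged from -3.09 to -2.38 and was called in none of these 6 fits (limma adjusted p = 0.0513 to 0.199). DPYSL3 in U87MGR against U87MG ranged from 1.30 to 2.19 and was called in 1 of them, without U87MG replicate 1. In U87MGL against U87MG the number of genes called was 0 without U87MGR replicate 1, 0 without U87MGR replicate 2, 2 without U87MGL replicate 1, 0 without U87MGL replicate 2, 6 without U87MG replicate 1 and 3 without U87MG replicate 2. With 2 spike-in batches as a block, limma called none of the genes in any comparison (3, 3 and 4 at an unadjusted p under 0.05), and with 3 it called 1 (MAP1B, 2.26 in U87MGR against U87MG).

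The other probe sets of a gene gave a partial check, since they read the same RNA. For DPYSL3 the second-brightest set gave 2.23 in U87MGR against U87MG and 2.60 in U87MGL against U87MG, and the dimmest, which was under the threshold, -0.12 and 0.09. For DCLK1 all 4 sets gave a negative value in U87MGL against U87MG, of -3.33, -2.88, -1.13 and -0.75 from the brightest to the dimmest. The second-brightest gave -1.70 (SE 0.305) in U87MGR against U87MG where the brightest gave -1.08 (SE 0.503). In U87MGR against U87MGL the 4 sets of DCLK1 gave 2.25, 1.18, 0.36 and 0.25 in the same order. MAP2 had a second set at -0.62 in U87MGL against U87MG. In GAP43 the second set gave 1.01 in the same comparison and 0.67 in U87MGR against U87MG. The MAP1B sets gave 0.99, 0.14 and 1.34 in U87MGL against U87MG, so the middle one in brightness hardly differed. TUBB3 gave 0.60 and 0.54. SCG2 and SCG5 have 1 probe set each and no such check.

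**Figure D3:**
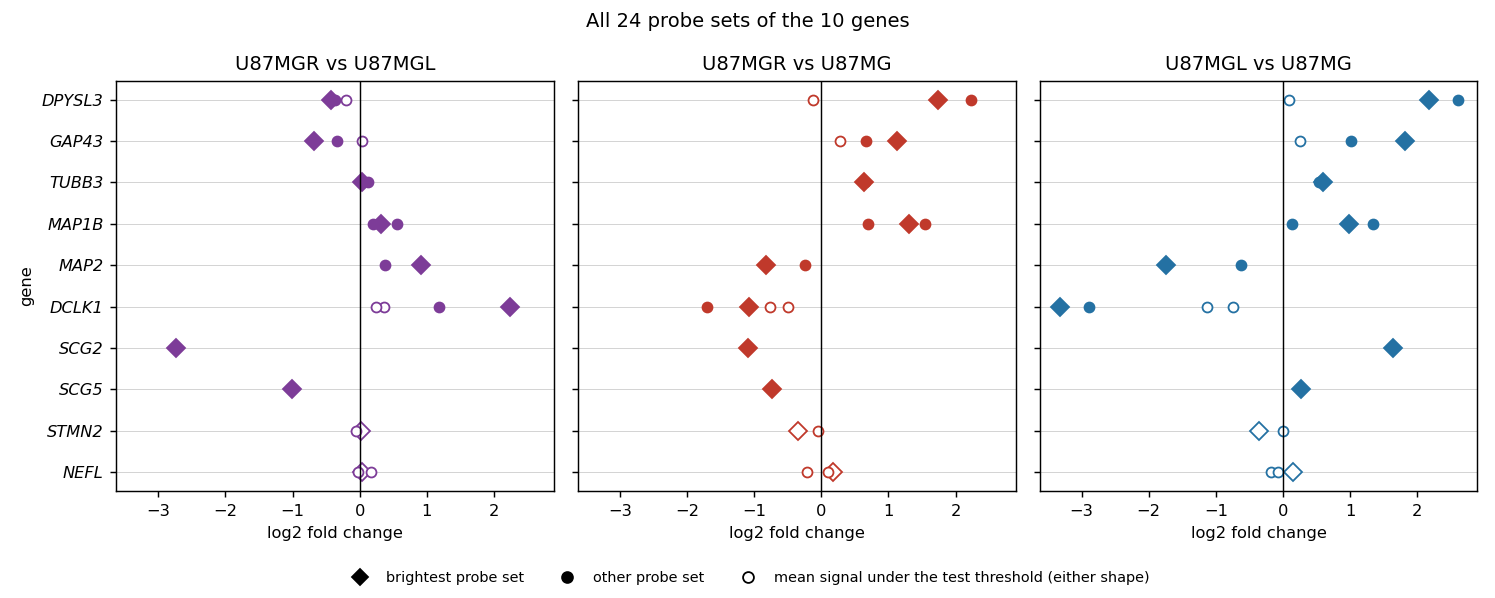
Log2 fold change (horizontal axis) of all 24 probe sets of the 10 genes in the 3 comparisons; diamonds are the brightest set of a gene, circles the others, and open symbols have a mean signal under 4.73. Open symbols lie closer to 0 than the filled ones of the same gene in DCLK1, at -1.13 and -0.75 against -3.33 and -2.88 in U87MGL vs U87MG.

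The 8 genes also differed between arrays of 1 group. The median absolute difference between the 2 arrays was 0.44 in U87MGR, 0.27 in U87MGL and 0.71 in U87MG, against 0.19, 0.14 and 0.25 over all genes tested. In U87MG the gaps of GAP43 (1.77), MAP1B (1.64) and DCLK1 (1.32) exceeded 0.91, the 95th percentile of all genes, and they ran in different directions: MAP1B, MAP2 and DCLK1 were higher, and GAP43, DPYSL3 and TUBB3 lower, in replicate 2 than in replicate 1. In U87MGL, DCLK1 (1.08), SCG2 (0.70) and MAP2 (0.63) exceeded the 95th percentile of 0.54. In U87MGR, SCG5 (0.72) and SCG2 (0.70) exceeded that of 0.69. The replicates of U87MGR and U87MGL have different names in their titles, so their spread may include differences between lines. The labels do not say whether the names mark independent lines.

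Genes related to these 10 were followed in 9 lists chosen by function. Over all 9 lists, in U87MGR against U87MGL limma called none of the 120 tested list genes, against 0.0413% of all genes called higher and 0.117% lower. With no filter on dim genes it called 1 (GPM6B, lower). At an unadjusted p under 0.05, 7 were higher and 5 lower, against 3.91% and 4.94% of all genes. In the list of collapsin response mediators and stathmins, which holds the relatives of DPYSL3 and STMN2, none of 7 was called and 2 were lower unadjusted, with a median of -0.21 against 0.00 over all genes. DPYSL4 differed by -0.86 there (SE 0.23, limma adjusted p = 0.322). In the list of granins and prohormone processing, none of 10 was called and 1 was higher unadjusted, with a median of -0.11 against 0.00 over all genes. VGF, another granule peptide precursor, differed by 0.89 (SE 0.22, limma adjusted p = 0.254), opposite in sign to SCG2 and SCG5. It was read on a set with the suffix _x_at. PCSK5, the other large change, had the same sign as SCG2 and SCG5, at -0.78 (SE 0.47, limma adjusted p = 0.683).

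In U87MGR against U87MG, 2 of 20 other microtubule-associated proteins were called higher and none lower, against 1.86% and 1.44% of all genes tested. Unadjusted, 7 and 2 passed, against 11.0% and 9.78%. The called genes were NAV2, a neuron navigator (1.48, SE 0.24, limma adjusted p = 0.0319), and GAS2L3, which links actin and microtubules (1.20, SE 0.22, limma adjusted p = 0.0386). With the mean of all probe sets NAV2 was 0.65 and not called (limma adjusted p = 0.0739). With 2 spike-in batches as a block NAV2 was not called (limma adjusted p = 0.064), and with 3 it was (0.0412). GAS2L3 was not called with 2 or 3 spike-in batches as a block (limma adjusted p = 0.138 and 0.105). With 1 array left out NAV2 ranged from 1.14 to 1.82 and GAS2L3 from 0.98 to 1.42. The NAV2 call was lost in every such fit, and the GAS2L3 call in every one but that without U87MG replicate 1. In U87MGL against U87MG none of the 20 was called, with 8 higher and 4 lower unadjusted, against 13.2% and 10.1% of all genes. STMN1, the widely expressed stathmin of dividing cells, was 2.04-fold higher in U87MGL than in U87MG (1.02, SE 0.22, limma adjusted p = 0.0469). It was the 1 call among the 7 collapsin response mediators and stathmins, against 3.02% of all genes called higher. Of 12 other tubulin chains none was called in either derivative. Unadjusted, 6 of the 12 were higher and none lower in each, against 11.0% of all genes higher in U87MGR and 13.2% in U87MGL. The list medians were 0.40 in U87MGR and 0.42 in U87MGL, against -0.01 and -0.02 over all genes. TUBA1B, TUBA1C, TUBB, TUBB4B and TUBD1 were read on sets with the suffix _x_at, whose probes can also match other transcripts. Whether these chains repeat the same signal was not tested.

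Among genes of regulated exocytosis, the called ones were higher in U87MGR and both higher and lower in U87MGL. RAB3B, a small GTPase of secretory vesicles, was higher in U87MGR than in U87MG (1.27, SE 0.16, limma adjusted p = 0.0194) and in U87MGL than in U87MG (1.61, SE 0.16, limma adjusted p = 0.00924). PTPRN2, a membrane protein of dense-core granules, was higher by 0.82 in U87MGR and by 0.73 in U87MGL (limma adjusted p = 0.0406 and 0.0447). The PTPRN2 call in U87MGR was lost with the replicate block and with the mean of all probe sets (0.60, limma adjusted p = 0.1015). It was also lost with 2 or 3 spike-in batches as a block and whenever 1 array was left out. RAB3B in U87MGR was not called with 2 or 3 batches as a block (limma adjusted p = 0.0994 and 0.0601). With those blocks no list gene was called in U87MGL against U87MG. SYTL2, a synaptotagmin-like Rab effector, was higher in U87MGL than in U87MG by 1.39 (SE 0.25, limma adjusted p = 0.03), and CADPS, which primes dense-core vesicles for release, was lower by 1.17 (log2 fold change -1.17, SE 0.16, limma adjusted p = 0.0158). In all, 2 of 22 were called higher and 0 lower in U87MGR, with 4 and 3 unadjusted, and 3 higher and 1 lower in U87MGL, with 3 and 5 unadjusted. The shares of all genes called higher and lower were 1.86% and 1.44% in U87MGR, and 3.02% and 1.80% in U87MGL. Unadjusted, these shares were 11.0% and 9.78% in U87MGR, and 13.2% and 10.1% in U87MGL. The list medians were -0.09 and -0.13.

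The lists of granins and processing (10 tested), growth cone (15), intermediate filaments (6), transport motors (16) and neuronal regulators (12) had no called member in any of the 3 comparisons as fitted here. Against U87MG, the unadjusted counts of higher and lower genes in U87MGR were 2 and 0, 0 and 2, 1 and 0, 4 and 1, and 0 and 0 in that order of lists, and in U87MGL 1 and 0, 0 and 1, 2 and 0, 3 and 1, and 1 and 0. The shares of all genes higher and lower were 11.0% and 9.78% in U87MGR, and 13.2% and 10.1% in U87MGL. In the growth cone list the adhesion molecule NCAM1 differed by -2.09 in U87MGR against U87MGL (SE 0.65, limma adjusted p = 0.402); set beside U87MG it differed by -1.78 (limma adjusted p = 0.183). With the mean of all probe sets of NCAM1 these differences were smaller, at -0.68 and -0.76. Its log2 signal on the brightest set, to which the values below belong, was 5.94 and 4.11 in U87MGR, 7.27 and 6.96 in U87MGL, and 7.53 and 6.07 in U87MG. Without U87MGR replicate 2 the difference was -1.17 from U87MGL and -0.86 from U87MG, and without U87MGR replicate 1 it was -3.01 and -2.70. Within the batch of U87MGR replicate 2 and U87MG replicate 1 it was -3.43; limma called that difference when the 3 spike-in batches were a block (-3.43, adjusted p = 0.032).

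**Figure D4:**
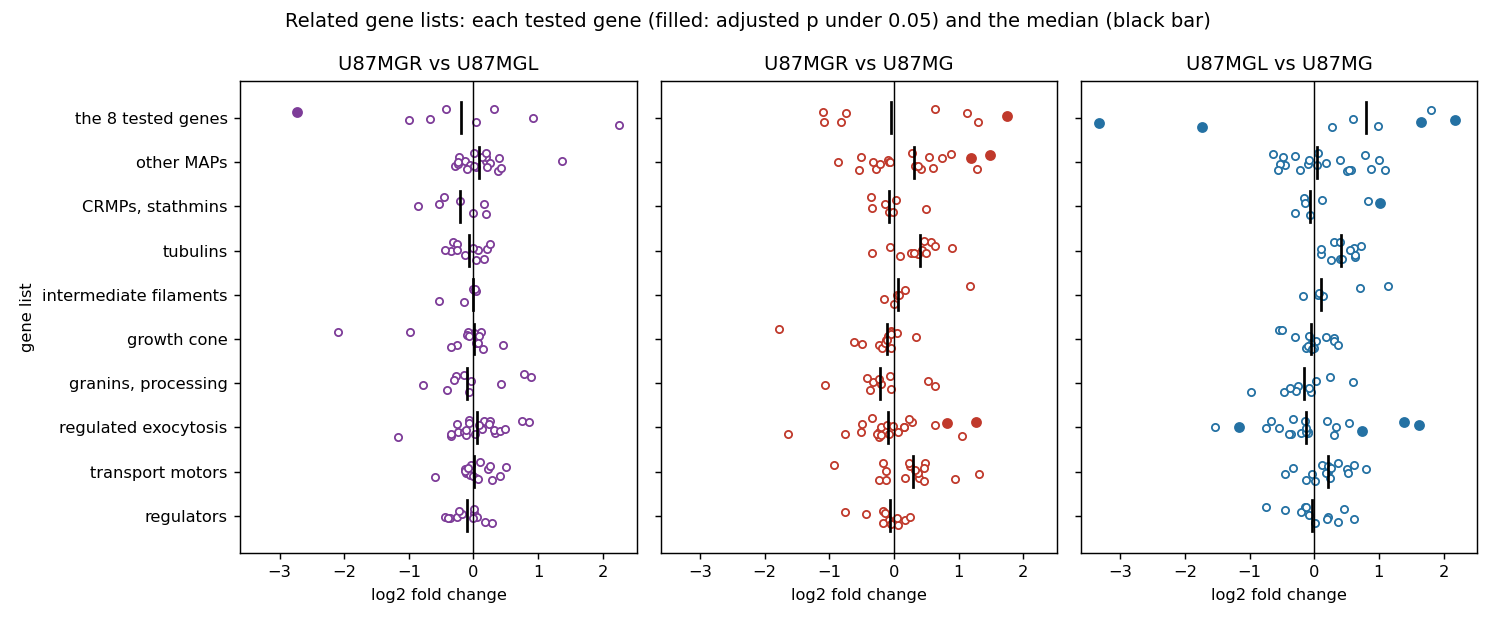
Log2 fold change (horizontal axis) of the 8 tested genes and of each tested gene of the 9 related lists in the 3 comparisons, with small vertical offsets for legibility; filled points have an adjusted p under 0.05 and black bars are list medians. No list gene is filled in U87MGR vs U87MGL, and RAB3B (1.27 and 1.61) is filled in both comparisons with U87MG.

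No marker that defines neurons was called. Of 17 neuron markers 12 were tested. At an unadjusted p under 0.05 in limma, 0 were higher and 0 lower in U87MGR against U87MGL (3.91% and 4.94% of all genes). Against U87MG the counts were 1 and 0 in U87MGR (11.0% and 9.78%), and 2 and 1 in U87MGL (13.2% and 10.1%). The summed linear signal of the 17 was 3914 to 4033 in U87MGR, 4212 to 4885 in U87MGL and 2961 to 4076 in U87MG. ELAVL4, SLC17A6, GRIA2, ELAVL2 and SYN2 had means under the threshold, as did doublecortin (DCX), the classical marker of migrating neurons, at 3.30 to 3.55. Others were well above it. ENO2, an enolase of neurons that many tumour lines also express, made up most of the sums, at 11.57 and 11.47 in U87MGR, 11.63 and 11.87 in U87MGL, and 11.57 and 10.90 in U87MG. GAD1 lay at 7.24 to 7.89, and NRGN had 7.62 and 7.83 in U87MGR, 8.08 and 8.18 in U87MGL, and 7.61 and 6.64 in U87MG. NRGN differed by 1.00 in U87MGL against U87MG (SE 0.30, limma adjusted p = 0.11). SYN1, the other large change there, went the other way, by -0.70 (SE 0.24, limma adjusted p = 0.149). The median of the 12 tested markers in that comparison was -0.30, against -0.02 over all genes. RBFOX3, the nuclear marker NeuN, lay at 5.14 and 5.79 in U87MGR, 5.14 and 5.15 in U87MGL, and 5.36 and 5.48 in U87MG. Their part in the differences of the 10 genes was not tested.

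For the glioma label, the astrocyte marker GFAP was low, at 5.21 to 5.45, and S100B and AQP4 were under the threshold on every array, while GJA1 lay at 11.73 to 12.91. SLC1A3, the glial glutamate transporter, was lower in U87MGR than in U87MG by 1.40 (log2 fold change -1.40, SE 0.18, limma adjusted p = 0.0185) and in U87MGL than in U87MG by 1.07 (-1.07, SE 0.18, limma adjusted p = 0.0254). It was the 1 call among 5 tested astrocyte markers in each, against 1.44% and 1.80% of all genes called lower. Neither call of SLC1A3 held with 2 or 3 spike-in batches as a block. Summed signals of the 8 astrocyte markers were 6891 and 3986 in U87MGR, 8406 and 6360 in U87MGL, and 8680 and 8362 in U87MG. GJA1 made up most of these sums, at 12.61 and 11.73 in U87MGR, 12.91 and 12.46 in U87MGL, and 12.87 and 12.74 in U87MG. It was not called in any comparison. None of 3 oligodendrocyte, 4 microglia and 5 endothelial markers tested was called. Unadjusted, 1 microglia marker was lower in U87MGR against U87MG (9.78% of all genes). In U87MGL against U87MG, 1 oligodendrocyte marker was lower (10.1% of all genes). Microglia markers summed to 368 and 370 in U87MGR, 386 and 413 in U87MGL, and 386 and 461 in U87MG. Their part in the differences above was not tested.

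REST, the repressor that keeps many neuronal genes silent outside neurons, was not called in any comparison. Its log2 signal was 7.65 and 7.30 in U87MGR, 7.89 and 7.77 in U87MGL, and 7.58 and 7.35 in U87MG. The difference was -0.36 in U87MGR against U87MGL (95% interval -0.79 to 0.08, limma adjusted p = 0.637). It was 0.01 in U87MGR against U87MG (-0.42 to 0.45, limma adjusted p = 0.981) and 0.37 in U87MGL against U87MG (-0.07 to 0.80, limma adjusted p = 0.282). The sign of each depended on the probe set read.

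The upstream windows were searched on both strands for 6 motifs, none of which contains another: TTCAGCACC and GGACAGC, letters from the first and from the second part of the element that REST binds, TGACGTCA, the cyclic AMP response element, CACGTG, an E-box, TATAAA, the TATA box, and GGGCGG, the GC box. RefSeq promoters were matched for 7 of the 10 genes, with 14 start sites in all; SCG2, STMN2 and NEFL had no entry. TTCAGCACC, TGACGTCA and CACGTG were in none of the 14 windows, against 0.288%, 1.65% and 6.34% of 35116 windows of all genes. GGACAGC was in 1 window, that of GAP43, against 4.76% of all. TATAAA was in 2, both of MAP1B, against 10.7%, and GGGCGG in 6 windows of 5 genes (MAP1B, DCLK1, DPYSL3, TUBB3 and SCG5), against 42.6%. No 2 of the 16 matches overlapped. The GAP43 window is shown for its match, which lies 97 to 91 bases before the start. A match is a run of letters and not a shown binding site.
GAP43 start 1, chr3:115623260-115623509, plus strand: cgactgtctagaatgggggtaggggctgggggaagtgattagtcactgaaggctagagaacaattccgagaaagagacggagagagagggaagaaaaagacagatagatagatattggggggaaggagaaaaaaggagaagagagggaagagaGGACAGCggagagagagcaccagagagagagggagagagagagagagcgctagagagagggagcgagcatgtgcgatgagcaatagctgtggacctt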

How the data were processed

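The arrays measured total RNA of cultured cells, labelled as biotinylated cRNA per the labels' protocols. The authors deposited 1 log2 value per array for each of 54675 probe sets, between 2.38 and 14.6; the sources used here name no normalization method, and the values were taken unchanged. Gene names came from the platform's annotation: 41097 carried 1 symbol, 1801 several and 11777 none, and 41043 matched the RefSeq gene table of GRCh38.p14. Each gene was read on its brightest 1-symbol probe set and tested if its mean was at least 4.73, the 40th percentile, which left 14513 of 19775 genes. limma 3.58.1 (R 4.3.3) was fitted across all of them with a mean per group, 3 residual and 4.05 prior degrees of freedom, a median standard error of 0.19 and Benjamini-Hochberg adjustment. The number of arrays limits the precision. p-values measure the spread among the arrays at hand, which the titles call biological replicates without saying how they were grown.

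The genes, the lists (197 entries in 14 lists, 188 on the array) and the alternatives were chosen with earlier results of these data known. All 10 genes were named. Of each list, up to 2 called genes that rose most and up to 2 that fell most could be named, or up to 2 with the greatest change where no member was called, and REST in every comparison. PTPRN2 in U87MGL, DCX and the single marker genes fall outside that rule and were named after their values were seen. Batches came from 42 spiked-in control probe sets clustered by average linkage. Alternatives were the replicate number or the batches as a block, other filters, other ways to choose probe sets, quantile normalization, a trended prior, fits of 2 groups and leaving out each array. The fit was tested on simulated data with known changes. Those data were drawn without batches, so they do not bear on the calls lost with batches as a block. Upstream windows came from the RefSeq promoter table.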

Additional observations from a re-analysis of the deposited data

Results flagged for a closer look

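SCG2 and SCG5 were marked because the derivatives moved in opposite directions from the parental line, with every U87MGR array below and every U87MGL array above both U87MG arrays. The share of all genes tested with this order of arrays was not counted, so nothing is read from its presence here. For SCG2 the difference between U87MGR and U87MGL was -2.74, with a limma adjusted p of 0.0388, but both U87MGR arrays lay under the threshold and the gene reached it only through U87MGL. The call was lost in all 6 fits with 1 array left out (limma adjusted p = 0.0513 to 0.199), with the replicate block (0.0524) and with 2 or 3 spike-in batches as a block (0.199 and 0.125). For SCG5 it was -1.00 and did not pass (limma adjusted p = 0.244), so a difference between its changes is not shown. The directions against U87MG rest for SCG5 on small values in U87MGL (0.27), which turned to -0.45 and -0.48 with 2 and 3 spike-in batches as a block.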

How the results depend on the processing

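Over the 8 tested genes and all alternatives, 51 of the recomputed fold changes lost a call, 7 gained one and 7 changed sign. Another 331 were counted as unchanged and 1 as moved in size. Some alternatives repeat the same calculation, so these are not counts of separate checks. In U87MGR against U87MGL, 2 spike-in batches as a block gave SCG2 -3.08, as did leaving out U87MGR replicate 2. Leaving out either U87MG array there repeated the fit of only the 2 groups. Sizes could move a good deal within an unchanged call: with the mean of all probe sets DCLK1 was 1.01 in U87MGR against U87MGL and -2.02 in U87MGL against U87MG, and MAP2 -1.18 in U87MGL against U87MG. The number of the 10 genes called was reported as 1 between the derivatives, 1 between U87MGR and U87MG, and 4 between U87MGL and U87MG. In U87MGR against U87MGL it was 0 with the replicate block, with 2 or 3 spike-in batches as a block, with a filter at the 60th percentile (which SCG2 did not reach), with the most variable probe set and with only the 2 groups, and 0 to 0 with 1 array left out (3 to 5 at an unadjusted p under 0.05 in limma). In U87MGR against U87MG it was 0 with the replicate block, 2 spike-in batches, the mean of all probe sets, the most variable probe set or only the 2 groups, and 0 to 3 with 1 array left out (3 to 7 unadjusted where none was called). In U87MGL against U87MG it was 0 with 2 or 3 spike-in batches or only the 2 groups, 3 with the replicate block, and 0 to 6 with 1 array left out (4 to 6 unadjusted where none was called). Replicate numbers were not shown to pair the arrays: deviations of equally numbered arrays correlated at 0.01, 0.11 and -0.09; with the replicate block SCG2 was at adjusted p = 0.0524 against U87MGL. Fits with fewer arrays have fewer degrees of freedom, and SCG2 was lost at an unchanged -2.74 without either U87MG array (0.0564).

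Signs changed for TUBB3 in U87MGR against U87MGL (-0.0067 with 2 or 3 spike-in batches as a block and without U87MGR replicate 2, -0.00665 within the batch, and -0.056 to 0.14 with 1 array left out) and for SCG5 in U87MGL against U87MG (-0.45 with 2 and -0.48 with 3 batches). REST turned to 0.074 in U87MGR against U87MGL with the most variable probe set. In U87MGR against U87MG it turned to -0.16 with 2 batches and without U87MGR replicate 1, -0.28 with 3 batches and within the batch, -0.22 with the mean of probe sets, -0.40 with the most variable one, -0.036 with quantile normalization and -0.10 without U87MG replicate 2 (-0.16 to 0.18 with 1 array left out). In U87MGL against U87MG it turned to -0.094 with 3 batches, -0.044 with the mean and -0.48 with the most variable probe set. The cause was not tested. Genes of all 14 lists called numbered 0, 5 and 6 in the 3 comparisons. With no filter on dim genes the first was 1 (GPM6B, lower, a gene under the threshold, named after its value was seen); with 2 batches they were 0, 0 and 0 (7, 24 and 11 unadjusted in limma), and with 1 array left out 0 to 0, 0 to 10 and 0 to 21, the highest being those without U87MG replicate 1 and the lowest those without a U87MGR array or without U87MGL replicate 2.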

Other observations

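Relatives of the 10 genes also differed between arrays. DPYSL4, a collapsin response mediator close to DPYSL3, had a log2 signal of 7.75 and 7.57 in U87MGR, 8.63 and 8.41 in U87MGL, and 7.99 and 7.37 in U87MG, so both U87MGL arrays were above the other 4. VGF had 7.22 and 7.45 in U87MGR, 6.46 and 6.43 in U87MGL, and 6.42 and 6.97 in U87MG, with both U87MGR arrays the highest. CPE, the carboxypeptidase that trims peptides in granules, had 7.73 and 7.73 in U87MGR, 6.51 and 7.40 in U87MGL, and 8.65 and 7.21 in U87MG, and its parental arrays lay at both sides of the U87MGR arrays. None of these was called by limma in any comparison.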
